A study of Rattus norvegicus with 18 samples.

Results

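The 5 dopamine receptor genes *Drd1*, *Drd2*, *Drd3*, *Drd4* and *Drd5* and the monoamine oxidase genes *Maoa* and *Maob* were followed in the prefrontal cortex (PFC) of rat pups. They were picked by gene symbol, and all 7 were among the 32623 genes listed for every pup. Their Ensembl identifiers in the files are ENSRNOG00000023688 (*Drd1*), ENSRNOG00000008428 (*Drd2*), ENSRNOG00000060806 (*Drd3*), ENSRNOG00000017927 (*Drd4*), ENSRNOG00000005338 (*Drd5*), ENSRNOG00000002848 (*Maoa*) and ENSRNOG00000029778 (*Maob*). Expression was measured by RNA-seq in Sprague Dawley pups at postnatal day 14 (P14), with 6 pups in each of 3 groups. In the SAL group the dams received saline. In the PNO group, for postnatal oxycodone (oxy), the dams were gavaged with oxy at 15 mg/kg/day from birth of the litter to weaning. In the IUO group, for in utero oxy, dams took 10 mg/kg/day at first and 15 mg/kg/day by the time of mating, and stayed on it until weaning, so these pups met the drug before and after birth. The labels give neither the litter nor the sex of a pup, so p-values measure the spread between pups and littermates cannot be told apart from pups of separate dams.

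Dopamine receptors are G protein-coupled receptors that fall into the D1 class (*Drd1* and *Drd5*), which raises cyclic AMP, and the D2 class (*Drd2*, *Drd3* and *Drd4*), which lowers it. In the PFC they tune working memory and the balance of excitation and inhibition. *Drd1* and *Drd2* are far more abundant in the neighbouring striatum, where they mark the direct and the indirect pathway projection neurons. The monoamine oxidases are enzymes of the outer mitochondrial membrane that break down dopamine, noradrenaline and serotonin, *Maoa* with a preference for serotonin and noradrenaline, and *Maob* being rich in astrocytes and in serotonin neurons.

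The sequences just upstream of the gene starts are shown for *Drd1* and *Drd2*, which varied together among the pups, and for *Maoa* and *Maob*, neighbouring genes on the X chromosome that did not. Each line gives the 250 bases before the gene start in RefSeq on the rat build GRCr8, 5′ to 3′ on the strand of the gene. Capitals mark matches to the GC box GGGCGG and to the CCAAT box CCAAT, or to their reverse complements CCGCCC and ATTGG.
Drd1, chr17:10546354-10546603, plus strand: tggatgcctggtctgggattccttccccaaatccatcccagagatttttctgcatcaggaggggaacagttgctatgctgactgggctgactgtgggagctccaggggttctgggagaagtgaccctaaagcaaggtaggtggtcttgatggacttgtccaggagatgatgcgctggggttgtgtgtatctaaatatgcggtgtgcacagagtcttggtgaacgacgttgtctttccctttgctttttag
Drd2, chr8:58605153-58605402, plus strand: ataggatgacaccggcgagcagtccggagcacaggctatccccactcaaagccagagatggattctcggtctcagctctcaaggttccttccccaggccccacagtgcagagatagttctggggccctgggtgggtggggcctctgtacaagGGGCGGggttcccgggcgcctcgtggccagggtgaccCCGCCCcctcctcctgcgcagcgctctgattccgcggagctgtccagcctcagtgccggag
Maoa, chrX:8681373-8681622, minus strand: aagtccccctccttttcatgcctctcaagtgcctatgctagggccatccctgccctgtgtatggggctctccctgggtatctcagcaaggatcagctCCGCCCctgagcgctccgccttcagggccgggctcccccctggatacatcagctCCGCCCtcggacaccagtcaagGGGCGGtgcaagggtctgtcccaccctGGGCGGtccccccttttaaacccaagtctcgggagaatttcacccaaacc
Maob, chrX:8490155-8490404, plus strand: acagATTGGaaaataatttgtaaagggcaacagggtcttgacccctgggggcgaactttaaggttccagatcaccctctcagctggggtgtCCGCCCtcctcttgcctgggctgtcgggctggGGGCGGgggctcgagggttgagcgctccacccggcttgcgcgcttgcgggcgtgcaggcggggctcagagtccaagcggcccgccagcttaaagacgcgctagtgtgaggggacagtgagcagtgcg
The *Maoa* window held 4 GC boxes, the *Drd2* window held 2, the *Maob* window held 2 with 1 CCAAT box, and the *Drd1* window held no match to either motif. Neither the TATA box TATAAA nor the cyclic AMP response element TGACGTCA, searched on both strands as well, was in any of the 7 windows. Of 27457 rat windows of the same length, 32.4% held a GC box, 34.3% a CCAAT box, 13.1% a TATA box and 1.7% a cyclic AMP response element. The GC content was 51.2% for *Drd1*, close to the median of 52.0% over all windows, against 66.0% for *Drd2*, 62.4% for *Maoa* and 63.6% for *Maob*. *Drd5* had 2 GC boxes and 67.2% GC, *Drd4* had 1 CCAAT box and 48.4% GC, and *Drd3* had no match and 38.0% GC, these being on chromosomes 14, 1 and 11 of the same build. A match of letters is a description and does not show that a factor binds there. Whether transcription in the PFC begins at these RefSeq gene starts was not tested.

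Expected counts summed to between 18381819 and 26084780 per pup, with a median of 22726306, and no pair of pups had identical values. All 10 cortical excitatory neuron markers looked up, *Slc17a7* among them, had a median of at least 1 TPM. The 12 striatal projection neuron markers looked up were also all present, and their summed level ranged 8.65-fold between pups, from 199.3 to 1725 TPM. The SAL pups spanned 199.4 to 1572 TPM with a median of 292.9, the PNO pups 199.3 to 1060 with a median of 291.8, and the IUO pups 393.1 to 1725 with a median of 618.3. The summed level of 6 oligodendrocyte markers ranged from 1381 to 11030 TPM, with medians of 4381 in SAL, 6590 in PNO and 2061 in IUO. That of 5 choroid plexus markers ranged from 0.82 to 2685 TPM, with 3 of the 5 under 1 TPM in the median pup. In bulk tissue, more cells of a type and more RNA per cell cannot be told apart.

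The receptors and the enzymes covered almost 3 orders of magnitude. By level per length, in the median of the 18 pups, the order was *Maoa* (47.1 TPM), *Maob* (24.6), *Drd1* (15.4), *Drd2* (11.6), *Drd5* (0.98), *Drd3* (0.205) and *Drd4* (0.06), and FPKM values gave the same order. The range of *Maoa*, 34.4 to 59.5 TPM, did not overlap with that of *Maob*, 17.8 to 31.5 TPM. *Drd1* ranged from 4.58 to 43.1 TPM and overlapped with *Maob*, which was the higher in 14 of 18 pups. *Drd2*, at 3.29 to 41.6 TPM, overlapped with *Drd1* and was the lower in 13 of 18 pups, so the order of these neighbours was not fixed. A gap without overlap separated *Drd2* from *Drd5*, whose highest pup had 2.02 TPM. *Drd5* was above *Drd3* in 18 of 18 pups although their ranges overlapped, and *Drd3* was above *Drd4* in 12 of 18. *Drd1* and *Drd2* together made up between 87.6% and 98.7% of the summed TPM of the 5 receptors, with a median of 95.8%.

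**Figure D1:**
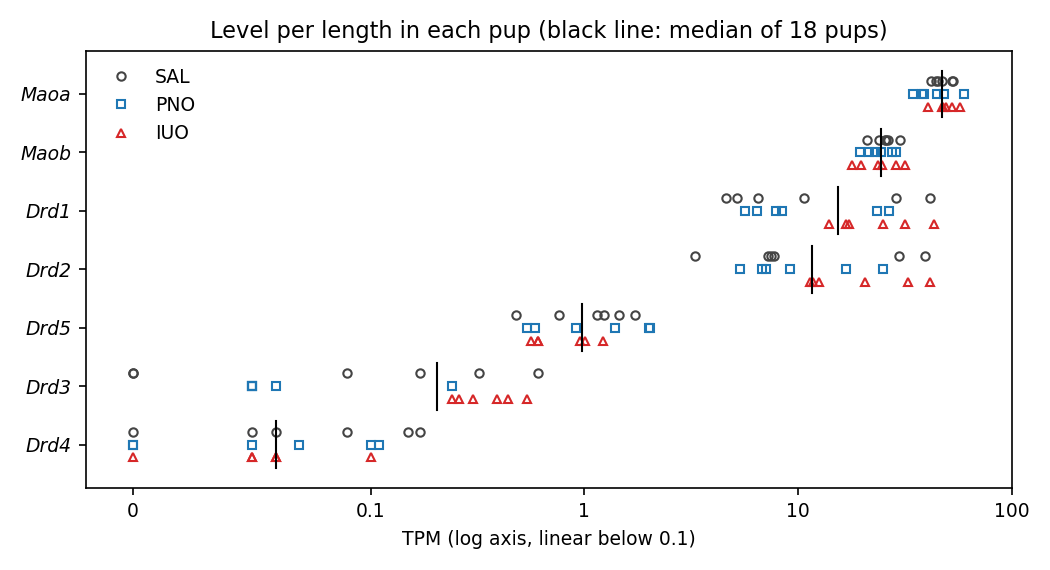
Level per length (TPM, log axis that is linear below 0.1) of the 7 genes in each of the 18 pups, with circles for SAL, squares for PNO, triangles for IUO and a black line at the median of all pups. *Maoa* and *Maob* sit in narrow bands, while *Drd1* and *Drd2* spread over about 10-fold and *Drd3* and *Drd4* reach 0 in some pups.

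*Drd1*, the main D1 class receptor, was the member with the largest difference between IUO and either other group on the log2 scale among the 5 that passed the filter on low counts, but the pups overlapped. It ranged from 6.94 CPM (counts scaled to the TMM-normalised library size) to 53.7 in SAL (median 11.2), from 8.71 to 41.3 in PNO (median 11.6) and from 19.3 to 60.5 in IUO (median 27.9). The group means were 21.5 ± 19.9 CPM in SAL, 18.5 ± 13.4 in PNO and 33.4 ± 16.0 in IUO (SD, n = 6). In SAL, replicates 1 and 3 were high at 53.7 and 38.6 CPM while the other 4 pups lay at 14.8 or below, and in PNO replicates 1 and 3 were likewise high at 28.7 and 41.3 CPM. All 6 IUO pups were above the median of SAL and above the median of PNO. By edgeR's quasi-likelihood test the IUO to SAL ratio was 1.56-fold (95% interval 0.700 to 3.46, log2 0.64 ± 0.54 SE, adjusted p = 0.930). IUO against PNO gave 1.80-fold (0.807 to 4.02, log2 0.85 ± 0.54 SE, adjusted p = 0.470) by the same edgeR fit, and PNO against SAL gave log2 -0.21 ± 0.54 SE (adjusted p = 0.953). Both IUO intervals took in equal levels as well as a 2-fold difference.

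*Drd2*, which signals in the opposite direction to *Drd1* and is also the autoreceptor of dopamine neurons, had nearly the same pattern. It ranged from 4.29 to 58.8 CPM in SAL (median 12.7), from 9.64 to 44.3 in PNO (median 13.8) and from 17.6 to 67.1 in IUO (median 25.2). Means were 24.4 ± 22.4 CPM in SAL, 19.1 ± 13.3 in PNO and 34.2 ± 20.9 in IUO (SD, n = 6). The same 2 SAL pups as for *Drd1* were the high ones, at 58.8 and 46.3 CPM, and IUO replicates 2 and 1 were the highest of their group. All 6 IUO pups were again above both medians, with the groups overlapping. With edgeR, IUO had a log2 difference of 0.49 ± 0.56 SE from SAL (adjusted p = 0.975) and 0.84 ± 0.57 from PNO (adjusted p = 0.497), and PNO one of -0.35 ± 0.57 from SAL (adjusted p = 0.922).

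**Figure D2:**
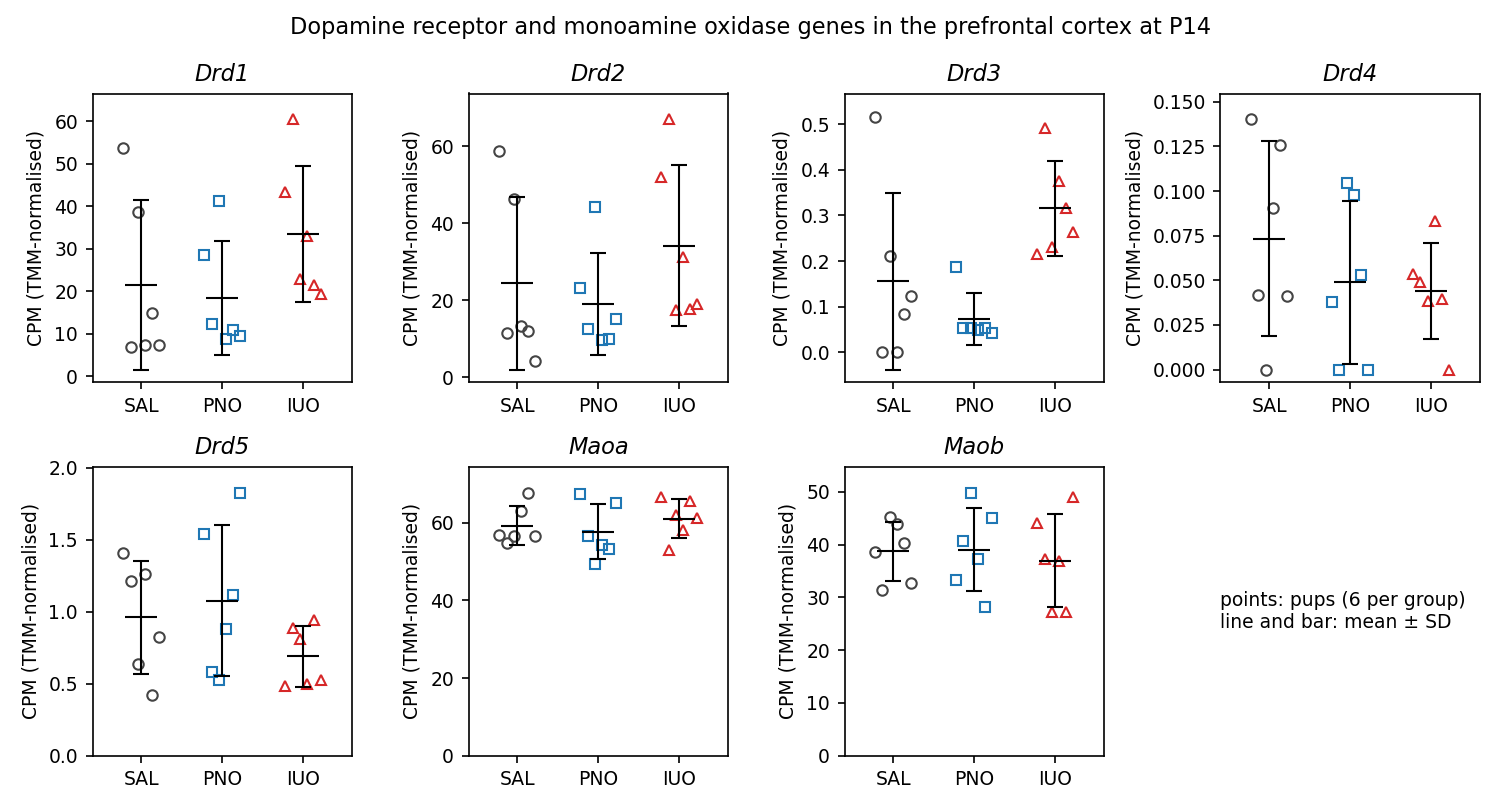
TMM-normalised CPM of the 7 genes by group, with 1 point per pup (6 per group) and the mean ± SD in black, each panel on its own linear scale. For *Drd1* and *Drd2* single pups of SAL and PNO reach the level of the higher IUO pups, and for *Drd3* the 6 IUO pups sit above the 6 PNO pups.

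None of the 5 members that passed the filter on low counts was called at an adjusted p under 0.05 in any comparison. The shares of the 15703 genes tested that were called were 0% in both comparisons with SAL and 0.0637% for IUO against PNO, which was 10 genes. At an unadjusted p under 0.05 the members again gave 0 of 5 in each comparison, against 4.5%, 6.88% and 15.3% of all genes. Over the alternative settings 11 of 345 member fits had an unadjusted p under 0.05, *Drd1* for IUO against PNO in limma-voom among them, and 0 were called. DESeq2 and limma-voom with sample quality weights also called 0 of these members. DESeq2 called 0.00637% of all genes in PNO against SAL, 0.312% in IUO against SAL and 2.78% in IUO against PNO, and limma-voom called 0%, 0.274% and 12.9%. Median log2 differences over the 5 were -0.04, 0.04 and 0.08, against 0.00, -0.01 and 0.00 over all genes tested.

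*Drd1* and *Drd2* varied widely among pups of the same group. The SD of log2 CPM within groups was 1.00 for *Drd1* and 1.06 for *Drd2*, at percentiles 96.8 and 97.2 of the 15703 genes tested, whose median was 0.254. Across the 18 pups the log2 levels of *Drd1* and *Drd2* had a Pearson's r of 0.93 (Spearman's rho 0.93), with 0.90 within SAL, 0.93 within PNO and 0.98 within IUO. Each pup had its own library, and the value is given as a description.

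The striatal marker score (the mean of the 12 markers' log2 CPM, each centred and scaled over pups, with no dopamine receptor in it) followed the same order of pups. *Drd1* had r = 0.98 and rho = 0.96 with the score over 18 pups, each with a permutation p of 1e-05, the smallest that the resamples can give, and 0.0001 after Benjamini-Hochberg adjustment over the 20 relations computed. Without the 2 pups farthest from the median score r was 0.97, and within SAL, PNO and IUO it was 0.98, 0.99 and 0.98. *Drd2* had r = 0.97 and rho = 0.95 (permutation p = 1e-05 for each, 0.0001 adjusted), 0.96 without the 2 farthest pups, and 0.96, 0.95 and 0.99 within the groups. With 6 pups a group, none of these within-group values passed after adjustment over the 60 relations within groups (adjusted exact permutation p of 0.119 to 0.167). Of the striatal markers with the highest TPM, *Ppp1r1b* (the phosphatase inhibitor DARPP-32, a target of D1 signalling) ranged from 25.5 to 754 TPM. *Penk*, which encodes enkephalin, ranged from 24.3 to 407 TPM, and *Tac1*, which encodes substance P, from 42.8 to 163 TPM. All 12 markers were higher in IUO than in SAL and than in PNO, as were 48.0% and 49.9% of all genes tested. The markers had median log2 differences of 0.38 and 0.60, and 0 of the 12 had an unadjusted p under 0.05 in edgeR's test.

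**Figure D3:**
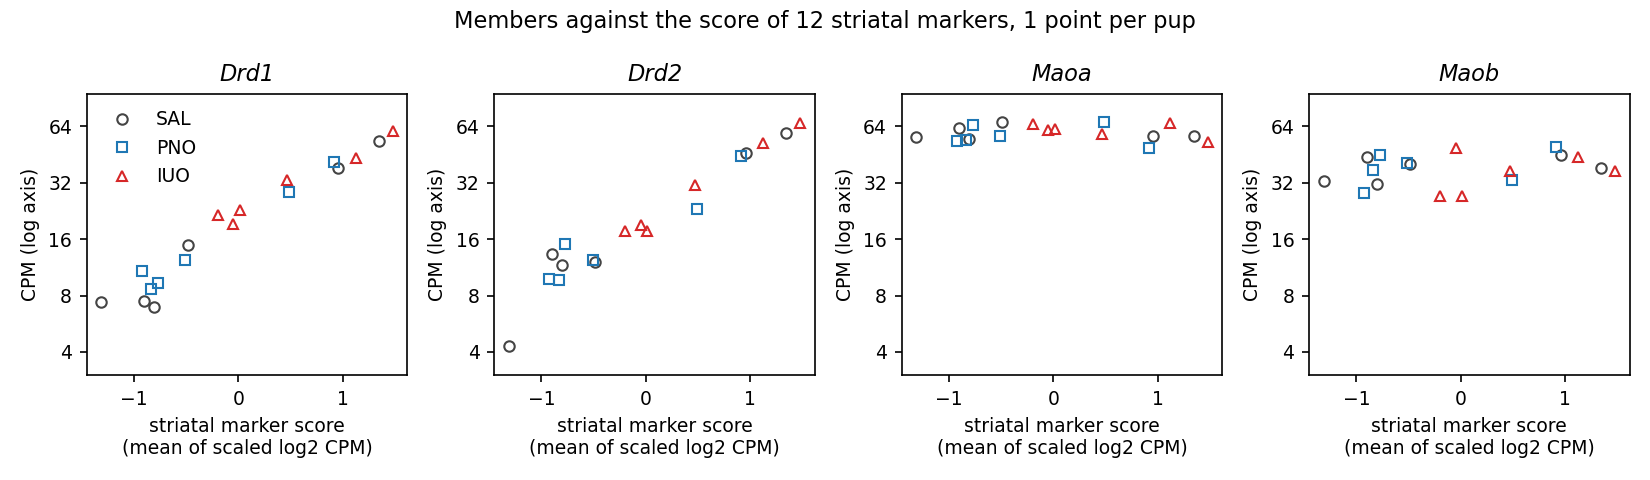
CPM (log axis) of *Drd1*, *Drd2*, *Maoa* and *Maob* against the striatal marker score, 1 point per pup, marked by group. *Drd1* and *Drd2* climb with the score through all 3 groups (r = 0.98 and 0.97), and *Maoa* (r = -0.10) and *Maob* (r = 0.29) have no relation to it past the threshold.

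With the striatal score as a covariate in the edgeR model, the IUO differences of both receptors shrank. *Drd1* went to a log2 difference of 0.25 against SAL (adjusted p = 0.666) and 0.16 against PNO (adjusted p = 0.508). *Drd2* went to a log2 difference of -0.0029 against SAL and -0.03 against PNO by the same fit (adjusted p = 0.997 and 0.947). PNO against SAL turned to a log2 of 0.09 for *Drd1* and 0.02 for *Drd2*. The score moves with the groups and with the members, and its part in the differences was not tested beyond this fit. With the oligodendrocyte score as a covariate instead, an alternative chosen after seeing the data, the IUO to PNO log2 differences were larger, at 1.79 for *Drd1* (edgeR adjusted p = 0.375) and 2.05 for *Drd2* (adjusted p = 0.311). In that fit IUO against SAL gave 1.02 for *Drd1* (edgeR adjusted p = 0.698) and 1.07 for *Drd2* (adjusted p = 0.631). PNO against SAL gave -0.77 and -0.99, and neither was called. With each pup left out in turn, the log2 difference of *Drd1* for IUO against SAL ran from 0.38 without IUO replicate 2 to 1.15 without SAL replicate 1 (edgeR adjusted p = 0.674), and that of *Drd2* from 0.18 to 0.96 without the same pups. For IUO against PNO they ran from 0.59 to 1.25 and from 0.52 to 1.28, highest without PNO replicate 3.

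**Figure D4:**
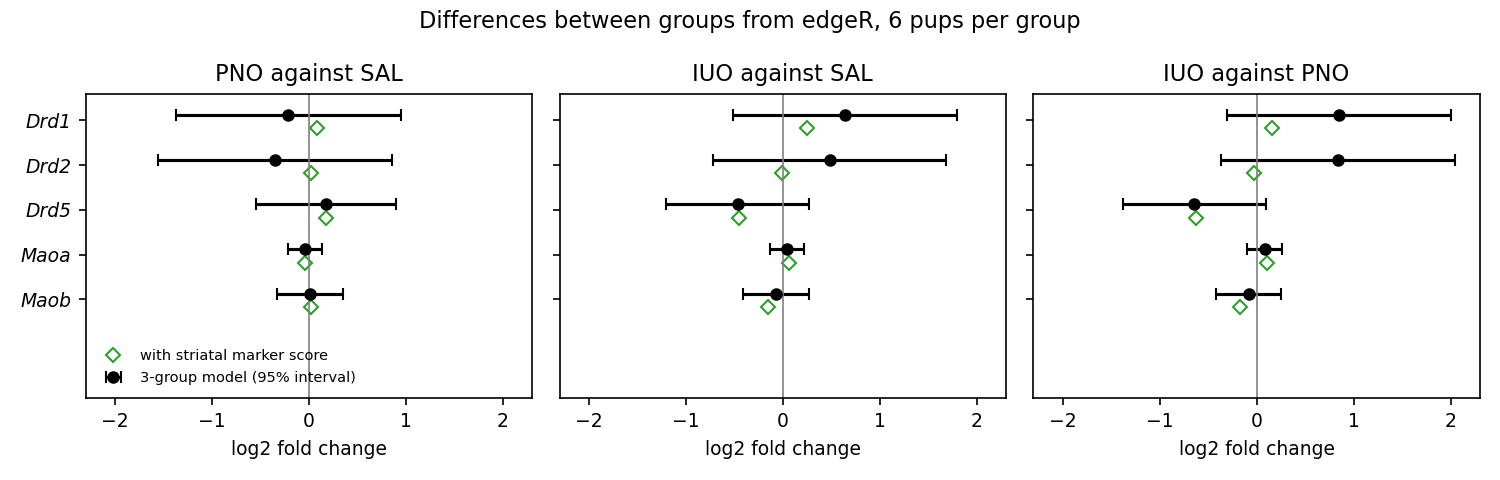
Log2 fold changes of the 5 fitted members in the 3 comparisons, with black circles and bars for the 3-group edgeR model and its 95% interval and green diamonds for the model with the striatal score. Every interval includes 0, those of *Drd1* and *Drd2* are wide, and their diamonds lie between -0.03 and 0.25.

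*Drd5*, the second D1 class receptor, had few counts and differed from *Drd1* in the direction of its values. Its counts ran from 10 to 30 per pup in SAL (median 24.0), from 10 to 42 in PNO (median 19.5) and from 9 to 24 in IUO (median 15.0). In CPM the means were 0.960 ± 0.393 in SAL, 1.08 ± 0.523 in PNO and 0.692 ± 0.212 in IUO (SD, n = 6). By CPM the IUO pups were all below the medians of the other groups, where the pups spread 3.35-fold in SAL and 3.48-fold in PNO from lowest to highest, and the groups overlapped. By TPM, IUO replicate 5 at 1.22 was above the medians of SAL (1.195) and PNO (1.15). The log2 difference in edgeR was -0.64 ± 0.35 SE for IUO against PNO (95% interval -1.38 to 0.09, adjusted p = 0.386), -0.47 ± 0.35 for IUO against SAL (adjusted p = 0.901) and 0.18 ± 0.34 for PNO against SAL (adjusted p = 0.937). Over 18 pups *Drd5* fell as the cortical excitatory neuron score rose (r = -0.62, permutation p = 0.0055, adjusted 0.037, and rho = -0.65, p = 0.004, adjusted 0.027). Without the 2 pups farthest from the median score r was -0.69. Within groups it was -0.87 in SAL (exact permutation p = 0.00278), -0.48 in PNO (exact permutation p = 0.347) and -0.12 in IUO (exact permutation p = 0.803), and none of the 3 passed after adjustment over 60 relations within groups, SAL having an adjusted exact permutation p of 0.119. With the striatal score *Drd5* had r = -0.22.

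*Drd3*, a D2 class receptor best known from the ventral striatum and the islands of Calleja, was read by few counts. SAL pups 1 to 6 had 11, 0, 4, 0, 2 and 3 counts, PNO pups had 5, 1, 1, 1, 1 and 1, and IUO pups had 4, 10, 6, 9, 8 and 6. The 6 IUO pups were all above the 6 PNO pups once scaled to library size, and SAL covered both, with replicate 1 above every IUO pup and 2 pups at 0. For the pups at 0, a count of 0 allows up to 0.128 and 0.127 CPM. Summed over the pups of a group and set against their summed library totals, there were 43 counts in IUO or 0.316 CPM (exact Poisson 95% interval 0.229 to 0.426), 10 in PNO or 0.0774 (0.0371 to 0.142) and 20 in SAL or 0.150 (0.0918 to 0.232). Those intervals cover counting error only.

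Since *Drd3* did not pass the filter on low counts, it was compared by two-sided exact permutation tests of mean CPM. IUO against PNO, 0.315 ± 0.105 against 0.0731 ± 0.0564 CPM (SD, n = 6), gave an exact p of 0.00217, the smallest that 6 against 6 pups can give. Of 23694 genes with a count in any pup, 1.18% had no overlap between IUO and PNO pups and 0.582% had none with IUO the higher. IUO against SAL gave an exact p of 0.115. It was 0.00433 without SAL replicate 1, the SAL pup above every IUO pup, and 0.108 to 0.217 with any other pup left out. PNO against SAL gave 0.394. These are single-gene values, from 6 such comparisons of *Drd3* and *Drd4*. The study listed *Drd3* and *Drd1* as differentially expressed from these same samples, with limits on fold change, p and false discovery rate. Neither gene was called by edgeR here, and the listing is not independent evidence of a direction. Fitted without a filter over the 23694 genes, *Drd3* had an edgeR log2 difference of 1.96 ± 0.68 SE for IUO against PNO (adjusted p = 0.261), which did not pass. With the striatal score added to that fit, a setting chosen after seeing the data, the log2 value was 1.45 ± 0.58 SE (edgeR adjusted p = 0.300). The pups with the most *Drd3* counts in SAL and IUO, replicates 1 and 2, were also those with the highest summed striatal markers of their groups. In PNO they were not the same pup, since replicate 1 had 5 counts at 762.3 TPM of striatal markers and replicate 3 had 1 count at 1060 TPM.

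*Drd4*, the D2 class receptor known for its place in cortical neurons, was lower still. Its counts lay between 0 and 3 in SAL, 0 and 2 in PNO and 0 and 2 in IUO, in sum 10, 6 and 6, and 4 of the 18 pups had none. The sums correspond to 0.0752 CPM in SAL (exact Poisson 95% interval 0.0360 to 0.138), 0.0464 in PNO (0.0170 to 0.101) and 0.0441 in IUO (0.0162 to 0.0960). Exact permutation p-values were 0.411 and 0.284 for PNO and IUO against SAL, and 0.790 between the treated groups. The counting intervals of the 3 groups overlapped.

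*Maoa* was among the steadier genes of the data. It ranged from 54.8 to 67.6 CPM in SAL (median 56.7), from 49.3 to 67.3 in PNO (median 55.5) and from 52.9 to 66.7 in IUO (median 61.6). Means were 59.2 ± 4.98 in SAL, 57.7 ± 7.08 in PNO and 61.1 ± 5.08 in IUO (SD, n = 6), with no pup standing apart. Its SD within groups was 0.141 on the log2 scale, at percentile 17.2 of all genes tested. The edgeR ratio was 1.03-fold for IUO against SAL (95% interval 0.912 to 1.17, adjusted p = 0.996), 1.06-fold for IUO against PNO (0.937 to 1.20, adjusted p = 0.649) and 0.974-fold for PNO against SAL (0.861 to 1.10, adjusted p = 0.943). A change of 1.5-fold in either direction lay outside all 3 intervals, and the same held for *Maob*.

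*Maob* was also alike in the groups, with a wider spread. It ranged from 31.5 to 45.3 CPM in SAL (median 39.5), from 28.2 to 49.8 in PNO (median 39.0) and from 27.2 to 49.1 in IUO (median 37.0). Means were 38.7 ± 5.67, 39.1 ± 7.84 and 37.0 ± 8.79 CPM (SD, n = 6). IUO replicates 3 and 5 and PNO replicate 5 were the low pups, between 27.2 and 28.2 CPM. The edgeR ratio was 0.955-fold for IUO against SAL (95% interval 0.756 to 1.21, adjusted p = 0.996), 0.946-fold for IUO against PNO (0.749 to 1.20, adjusted p = 0.827) and 1.01-fold for PNO against SAL (0.799 to 1.28, adjusted p = 0.988). *Maob* had r = 0.47 and rho = 0.53 with the oligodendrocyte score over 18 pups, with permutation p-values of 0.048 and 0.025 that became 0.24 and 0.12 after adjustment over the 20 relations. Over the 18 pups *Maoa* had no relation past the threshold with the striatal, cortical, astrocyte or oligodendrocyte scores. Its pooled r of 0.01 with the astrocyte score joined opposite values within groups, -0.93 in SAL (exact permutation p = 0.0361), 0.51 in PNO (exact p = 0.319) and 0.96 in IUO (exact p = 0.0111). None of these passed after adjustment over the 60 relations within groups (adjusted exact permutation p of 0.217, 0.684 and 0.119), and the difference between groups was not tested. The r of *Maoa* with *Maob* over the pups was -0.03.

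Ratios within a pup, which do not depend on library size, placed the pairs side by side. The TPM ratio of *Drd1* to *Drd2* ran from 0.631 to 1.97 with a median of 1.09, a narrower range than that of either gene. Its mean was 1.12 ± 0.508 in SAL, 1.10 ± 0.237 in PNO and 1.21 ± 0.199 in IUO (SD, n = 6). SAL held both ends, with replicate 6 at 1.97, the pup with the lowest *Drd2*, and replicate 4 at 0.631. The *Maoa* to *Maob* ratio ran from 1.20 to 2.91 with a median of 1.80, so *Maoa* was the higher in every pup. Means were 1.88 ± 0.238 in SAL, 1.85 ± 0.450 in PNO and 2.10 ± 0.581 in IUO (SD, n = 6). Two-sided exact permutation p-values of the 6 group comparisons, chosen after seeing the data, lay between 0.411 and 0.829, or 0.698 and 0.829 adjusted over the 6.

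**Figure D5:**
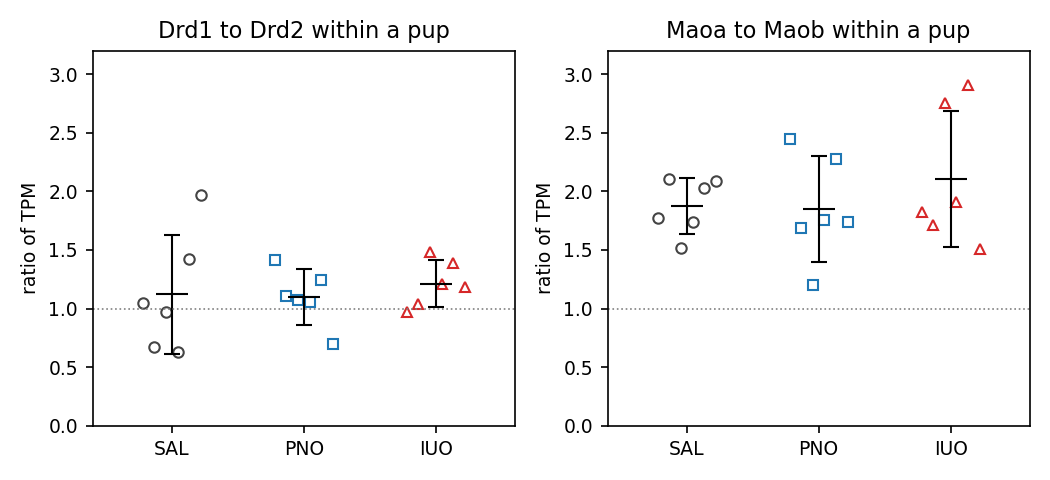
Ratio of *Drd1* to *Drd2* and of *Maoa* to *Maob* in TPM within each pup, by group, with 1 point per pup, the mean ± SD in black and a dotted line at 1. The *Drd1* to *Drd2* ratio lies on both sides of 1 in all 3 groups, and the *Maoa* to *Maob* ratio is above 1 in all 18 pups.

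Genes with the most similar course over the pups were ranked by Pearson's r of log2 CPM with each member over 18 pups and 15702 other genes. For *Drd1* these were *Adora2a* (r = 0.979), the adenosine receptor of indirect pathway neurons, *Ppp1r1b* (0.974) and *Rgs9* (0.969), a regulator of G protein signalling rich in striatum, with *Drd2* at rank 15. For *Drd2* they were *Nexn* (0.974), *Rgs9* (0.962) and *Syndig1l* (0.960), with *Drd1* at rank 8. *Drd5* was most like *Unc13c* (0.895), *Dpp6* (0.893) and *Popdc3* (0.874). For *Maoa* the values were lower, with *Cd180* at 0.810, *Mfsd9* at 0.735 and *Glra2* at 0.730, and for *Maob* they were 0.841 for *Sptssa*, 0.841 for *Vsir* and 0.838 for *Fgd2*. These are the highest of many values and are descriptions.

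Of 33 other genes of dopamine signalling that were looked up, 32 were tested, *Gnas* under 2 gene identifiers, and *Slc6a2*, the noradrenaline transporter, did not pass the filter. None was called, and the counts at an unadjusted p under 0.05 were 2 of the 33 entries higher and 0 lower in PNO than in SAL, 1 and 1 in IUO than in SAL, and 4 and 3 in IUO than in PNO. The shares of all genes were 1.89% higher and 2.6% lower, 3.02% and 3.87%, and 6.14% and 9.14% in the same order.

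In catecholamine synthesis, a list that includes *Dbh*, which makes noradrenaline from dopamine, 6 of 7 genes were at a lower value in IUO than in SAL and 6 of 7 than in PNO, with median log2 differences of -0.92 and -0.98. Of the 15703 genes tested, 8170 were lower in IUO than in SAL and 7869 lower than in PNO. *Th*, the rate-limiting enzyme, ranged from 1.74 to 11.6 TPM in SAL (median 5.4), from 1.39 to 19.0 in PNO (median 2.93) and from 1.59 to 3.49 in IUO (median 2.645). Its log2 difference was -1.28 ± 0.60 SE for IUO against SAL (edgeR adjusted p = 0.713). PNO replicate 6 had the most *Th* and *Ddc* RNA, and SAL replicate 4 the most *Gch1* and *Dbh*. For *Th* the SAL median was also above the highest IUO pup. *Pts*, an enzyme of tetrahydrobiopterin synthesis, had a log2 difference of 0.29 ± 0.11 SE for PNO against SAL (edgeR adjusted p = 0.912) and -0.32 ± 0.11 for IUO against PNO (edgeR adjusted p = 0.185). *Spr* of the same pathway gave -0.27 ± 0.13 SE for IUO against PNO (edgeR adjusted p = 0.327), and *Qdpr*, which recycles the cofactor and was the most abundant of the list at a median of 98.0 TPM, gave 0.04 ± 0.09 (adjusted p = 0.842).

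In uptake and packaging, *Slc6a3*, the dopamine transporter, had a log2 difference of -2.98 ± 1.00 SE for IUO against PNO (edgeR adjusted p = 0.179), with values of 0.04 to 5.52 TPM in PNO, the top one in replicate 6, and 0.07 to 0.30 TPM in IUO. *Slc29a4*, a low-affinity monoamine transporter with a median of 40.4 TPM, and *Slc18a2*, the vesicular transporter with 8.26 TPM, had log2 differences of 0.20 ± 0.15 and -0.61 ± 0.40 SE for IUO against PNO. The 8 catecholamine neuron markers, *Th*, *Slc6a3* and *Slc18a2* among them, summed to between 10.5 and 56.6 TPM in SAL, 11.98 and 69.4 in PNO and 10.5 and 16.6 in IUO, and 5 of the 8 were under 1 TPM in the median pup. Their part in these differences was not tested.

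Among the other breakdown enzymes, *Aldh2*, which oxidises the aldehyde that monoamine oxidase makes, had 36.7 to 61.3 TPM in SAL (median 49.1), 39.3 to 47.8 in PNO (median 42.2) and 54.2 to 65.2 in IUO (median 62.0). The log2 difference for IUO against PNO was 0.41 ± 0.12 SE (edgeR adjusted p = 0.132), with 0.31 ± 0.12 against SAL (edgeR adjusted p = 0.611). *Aldh1a1*, another aldehyde dehydrogenase, had 0.40 ± 0.18 SE for PNO against SAL on the log2 scale (edgeR adjusted p = 0.912). *Akr1b1*, an aldose reductase at a median of 85.3 TPM, gave log2 differences of -0.04 ± 0.07 SE against SAL and -0.08 ± 0.07 against PNO in IUO.

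In receptor transduction, *Gnal*, the G protein alpha subunit that couples *Drd1* to adenylyl cyclase in striatum, had medians of 60.5 TPM in SAL, 38.1 in PNO and 101.4 in IUO, with a log2 difference of 1.01 ± 0.41 SE for IUO against PNO (edgeR adjusted p = 0.253). Its gamma subunit partner *Gng7* gave 1.03 ± 0.43 SE on the log2 scale (edgeR adjusted p = 0.272), and *Gnai2*, an inhibitory alpha subunit, 0.17 ± 0.06 SE (edgeR adjusted p = 0.222). In the IUO to PNO comparison 12 of the 17 entries of this list were at a higher value, with a median log2 of 0.24, as were 49.9% of all genes tested. *Ppp1r1b*, *Rgs9* and *Pde10a* of the list were also among the striatal markers. *Gnas*, whose more abundant identifier had a median of 869 TPM, gave -0.13 ± 0.13 SE, and *Caly*, a partner of the D1 receptor at 320 TPM, gave -0.16 ± 0.19 SE.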

How the data were processed

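RNA-seq of the PFC of 18 rat pups (6 SAL, 6 PNO and 6 IUO, from the sample titles) was analysed from 1 deposited table per pup. The authors deposited expected counts, estimates that share out reads matching several genes, without normalization. They also deposited TPM and FPKM values, which are scaled to gene length and library and were used here only for levels per length. Libraries were pooled on 1 flow cell. The aligner, quantification program, genome build and test are not given in the sources used here.

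Rounded expected counts entered the quasi-likelihood test of edgeR 4.0.16 under R 4.3.3, two-sided, with TMM, filterByExpr and 1 model of 3 groups. Benjamini-Hochberg adjustment covered 15703 genes, and genes with an adjusted p under 0.05 were called. The 95% intervals use 15 residual degrees of freedom. Members below the filter got exact permutation tests, printed without an adjustment over the members, in place of the adjustment over 6 comparisons first planned. Relations used 100000 permutations. Alternatives were other size factors, DESeq2 1.42.0, limma-voom (limma 3.58.1), other filters, 12 pups only, a replicate block, marker score covariates and each pup left out. Steps were tested on simulated data, where edgeR recovered 40.8% of 1.5-fold and 64% of 2-fold changes for IUO against SAL. For IUO against PNO it recovered 38.8% and 66%. Of the genes called there, 4.1% and 7.2% had not been changed. Python 3.11.15, numpy 2.4.6, pandas 2.3.3, scipy 1.17.1 and matplotlib 3.10.9 were used. All 7 members matched RefSeq sequences.

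The members and lists were chosen with earlier results of these data known. Besides the members, the genes named are those of the other dopamine genes with an unadjusted p under 0.05 or the 2 highest TPM values of a list, the 3 genes most like each member and the 4 striatal markers with the highest TPM. Some genes that this rule names are not reported here. Other genes named as markers or for their high pups were chosen after their values were seen.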

Additional observations from a re-analysis of the deposited data

Results flagged for a closer look

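*Drd3* was higher in IUO than in PNO by 0.242 CPM (two-sided exact permutation p = 0.00217, higher in 6 of 6 IUO pups than in any PNO pup), on 43 and 10 counts. Of 23694 genes with a count in any pup, 0.582% had no overlap between these groups with IUO the higher, and 1.18% had none in either direction. The edgeR fit over all genes without a filter did not pass (adjusted p = 0.261).

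Within PNO, replicate 1 stood apart for *Drd3*. Its log2(CPM + 0.1) was -1.80 and the next pup was at -2.71, a gap that took 0.905 of the range of the group. The other 5 pups had 1 count each and replicate 1 had 5. This was 1 of 27 groups of 6 pups looked at. Chance alone marks about 1 in 20 groups of continuous values, a rate that need not hold for counts tied at 1.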

How the results depend on the processing

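Under 29 alternative settings, 345 fits of the members gave 0 calls, with a lowest adjusted p of 0.109, and 26 of them had the other sign. The correlation of deviations between same-numbered pups was over 0.1 in 4 of 6 pairs for PNO against SAL (mean r 0.232). The other means were -0.027 for IUO against SAL (1 of 6 pairs) and 0.063 for IUO against PNO (3 of 6). Whether the numbers pair the PNO and SAL pups was not tested further. With the replicate block, *Drd1* had log2 values of 1.07 for IUO against SAL and 1.15 against PNO. The main fit gave 0.64 and 0.85. *Drd5* shrank to -0.40 and -0.55 with the block, from -0.47 and -0.64.

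All genes called for PNO against SAL were 0, and 1 with DESeq2. For IUO against SAL they were 0, with 49 by DESeq2, 43 by limma-voom and 0 to 1 with each pup left out. For IUO against PNO they were 10, with 436 by DESeq2, 2028 by limma-voom, 19 without normalization, 72 with the 12 pups compared, 6 with the replicate block, 82 with the striatal score, 2 with that score and no filter, 0 with the oligodendrocyte score, and 1 to 95 with each pup left out.

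Signs turned as follows. With the striatal score, log2 values for PNO against SAL were 0.0879 (*Drd1*) and 0.0229 (*Drd2*), and *Drd2* was at -0.0029 against SAL and -0.0258 against PNO in IUO. With no filter as well they were 0.0844, 0.0196, -0.0104 and -0.03. *Maob* for PNO against SAL was -0.0344 without normalization, -0.0059 with the replicate block and -0.13 with the oligodendrocyte score, which gave 0.0404 and 0.17 for IUO against SAL and PNO. With each pup left out, PNO against SAL ran from -0.61 to 0.31 (*Drd1*), -0.79 to 0.13 (*Drd2*), -0.0356 to 0.32 (*Drd5*), -0.0882 to 0.0025 (*Maoa*) and -0.0678 to 0.0935 (*Maob*). *Maob* ran from -0.16 to 0.0077 for IUO against SAL and from -0.18 to 0.0009 for IUO against PNO. *Drd4* for IUO against PNO ran from -0.0146 to 0.0063 CPM. *Drd3* for IUO against SAL ran from 0.124 to 0.231 CPM, passing (exact p = 0.00433) without SAL replicate 1. The causes were not tested. *Drd3*, *Drd4* and *Drd5* rest on at most 11, 3 and 42 counts per pup.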
